A study of Mus musculus with 2 samples.

Results

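CTCF sites around the 8 genes of the troponin complex were described in whole heart of newborn B6NCrl mice (postnatal day 0). The genes are Tnni1 and Tnnt2 on chromosome 1, Tnnt1 and Tnni3 near one end of chromosome 7, Tnni2 and Tnnt3 near the other end of chromosome 7, Tnnc1 on chromosome 14 and Tnnc2 on chromosome 2. A site belonged to the set when its summit, in the list of peaks that passed the authors' optimal filter on the irreproducible discovery rate (IDR), lay within 100 kb of the GENCODE M21 record of one of the genes. That rule took 83 of the 44533 optimal peaks. Chromatin immunoprecipitation and sequencing (ChIP-seq) with an antibody against CTCF had been done in 2 libraries, which form 1 group with no second condition. The labels number the libraries as biological replicates 1 and 2, yet give both of them 1 tissue sample and 1 donor identifier. What separates the replicates may therefore be technical. Sex was not recorded. The heart was sampled whole, with all its cell types, and the peak lists hold no expression values against which the tissue label could be checked.

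Troponin is the calcium switch of striated muscle. Troponin C binds calcium, troponin I holds back the interaction of actin with myosin until calcium arrives, and troponin T ties the complex to tropomyosin on the thin filament. In vertebrates each gene for troponin I lies next to a gene for troponin T, an arrangement held to stem from duplication of an ancestral pair. Tnni3, Tnnt2 and Tnnc1 encode the forms of the adult heart, Tnni1, Tnnt1 and again Tnnc1 those of slow skeletal muscle, and Tnni2, Tnnt3 and Tnnc2 those of fast skeletal muscle. The fetal heart uses the slow skeletal troponin I of Tnni1, which Tnni3 replaces around and after birth. CTCF is a zinc finger protein that, with cohesin, anchors chromatin loops, and the strand on which its motif lies sets the direction in which it stops a loop.

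The sequences below are sites with a core on which the description of each locus turns: those inside or between the troponin genes, the nearest flanking ones, and one strong further site near each troponin C gene. Each line gives 30 bases of the RefSeq genome GRCm38.p6, the build called mm10, on the strand of the motif, 5′ to 3′, with the 14 bases of the best match to the CTCF core consensus in capitals. A match was accepted with at most 2 mismatches within 50 bp of the summit, on either strand. Sites lying in untranslated exons are left out of the listing.
between Csrp1 and Phlda3, core at chr1:135753088-135753101, minus strand, mismatches 0: ctgcatggCCAGCAGAGGGCAGcctgtctc
Tnni1, exon of a noncoding transcript, core at chr1:135781473-135781486, minus strand, mismatches 1: aggtcggaCCACCAGGGGTCGCtcctcccc
Tnni1 upstream intron, outer site, core at chr1:135787982-135787995, minus strand, mismatches 0: tctagttgCCACTAGAGGGCAGtgtggagc
Tnni1 upstream intron, middle site, core at chr1:135788950-135788963, minus strand, mismatches 2: tctgcttgCCGCCAGAGGGAGCaatgaagg
Tnni1 upstream intron, inner site, core at chr1:135790008-135790021, minus strand, mismatches 0: aatgctgtCCACCAGGGGGCGCagttttgc
Lad1 intron, between Tnni1 and Tnnt2, core at chr1:135829099-135829112, minus strand, mismatches 1: aatcttatCCACTAGGTGGGGCtgctcaca
Tnnt2 intron, upper site, core at chr1:135847268-135847281, plus strand, mismatches 0: ttatcctgCCAGCAGATGGCGCtttagtac
Tnnt2 intron, lower site, core at chr1:135850891-135850904, plus strand, mismatches 2: actgtaaaCCGCCAGAGGGAGGcactccct
downstream of Tnnt2, core at chr1:135865718-135865731, plus strand, mismatches 1: gaggtcagCCAGGAGGTGGCAGcatcgagc
Tnnt1 intron, core at chr7:4513421-4513434, plus strand, mismatches 0: cttcacggCCACCAGAGGGCGCaggagggc
Tnni3 5′ end, within Dnaaf3, core at chr7:4524403-4524416, minus strand, mismatches 1: ttcggaagCCACAAGAGGGCACcatgtccc
upstream of Tnni2, core at chr7:142440724-142440737, plus strand, mismatches 1: atgcactaTCAGCAGGGGGCAGtagatgtc
between Tnni2 and Lsp1, core at chr7:142457398-142457411, plus strand, mismatches 2: tctgagtcCCACCAGGGGTTGCagtctttc
Lsp1 intron, between Tnni2 and Tnnt3, core at chr7:142481369-142481382, plus strand, mismatches 1: atgggcagCCTGCAGGGGGCAGaattgcaa
Lsp1, exon of a retained-intron transcript, core at chr7:142487457-142487470, plus strand, mismatches 1: cctgcttaACAGCAGGGGGCACtttagatc
upstream of Tnnt3, outer site, core at chr7:142497067-142497080, minus strand, mismatches 2: cctcatggCCAGCAGGGGAGGGtggctacc
upstream of Tnnt3, inner site, core at chr7:142497995-142498008, minus strand, mismatches 2: tcctcaagACTCCAGGGGGCACcatccaac
Mrpl23 intron, downstream of Tnnt3, core at chr7:142538102-142538115, plus strand, mismatches 1: acagcaggCCGCTAGATGGCAGtctcgtgc
Nisch intron, upstream of Tnnc1, core at chr14:31196175-31196188, minus strand, mismatches 2: cctgtgtgCCACAAGGGGGCATcaaacccc
Nisch intron, downstream of Tnnc1, core at chr14:31215638-31215651, plus strand, mismatches 2: acctttgtCCATTAGGTGGCATggggtgtc
downstream of Sema3g, core at chr14:31234159-31234172, minus strand, mismatches 1: gctattgcACACCAGAGGGCAGtgttagca
upstream of Ube2c, near Tnnc2, core at chr2:164769430-164769443, minus strand, mismatches 0: ggacacgcCCAGCAGGGGGCACatcttctg
Acot8 intron, near Tnnc2, core at chr2:164794500-164794513, minus strand, mismatches 1: ccagactgCCACTAGAGGGAGCtgtttcta

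The signal value is the height that the authors' peak caller gave to a peak, relative to a control. Within the optimal list its median was 60.8, and percentiles below are ranks in that list. The pooled value is about the sum of the 2 libraries' own values, which are given beside it from the nearest summit within 100 bp in each library's list of 300000 relaxed peaks. Read depth is unknown from these lists, so no counting interval is given, and a site that is weak in all cells cannot be told apart from one bound in few of them.

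Around Tnni1 and Tnnt2 lay 23 optimal summits, 9 of them inside the 2 gene records. The Tnni1 record (ENSMUSG00000026418.16, chr1:135779434-135810989, plus strand) held 5. The one at 135781471, 2.04 kb into the record, had a pooled signal of 202, with 112 in replicate 1 and 90.3 in replicate 2. The one at 135788002 had 195, with 107 in replicate 1 and 88.5 in replicate 2. Its neighbour at 135788969 was weaker, at 89.3, with 46.96 in replicate 1 and 40.02 in replicate 2. The strongest, at 135790013, reached 234 (percentile 97.4), with 121 in replicate 1 and 117 in replicate 2. All 4 therefore stood above the list median, and 3 of them ranked above its 92nd percentile. Replicate 1 was above replicate 2 at each, as at most optimal peaks.

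These 4 sites lay in the upstream part of the Tnni1 record, and the first of them in an exon of a noncoding transcript. The RefSeq start of Tnni1 lies 19.987 kb further in, and the 4 sites were 9.41 to 17.9 kb upstream of it. The fifth summit, at 135799299, was 122 bp upstream of that RefSeq start and among the weakest of the whole list (signal 8.09, percentile 0.20), with 4.94 in replicate 1 and 4.39 in replicate 2. It was absent from the conservative list. Taken from the RefSeq starts, Tnni1 therefore held 0 optimal summits and the troponin genes together 10 in place of 15, a comparison added after the data were seen.

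Between Tnni1 and Tnnt2 lie 25.4 kb and one other protein-coding gene, Lad1, which encodes the anchoring filament protein ladinin. This stretch held 3 optimal summits. The first, at 135811463, lay 474 bp past the 3′ end of Tnni1 with a signal of 203, from 105 in replicate 1 and 95.2 in replicate 2. The second, at 135813753, had only 9.85, was seen at 6.85 in replicate 1 and had no summit within 100 bp in replicate 2. The third, at 135829110 in a Lad1 intron 7.24 kb upstream of Tnnt2, had 142, from 79.5 in replicate 1 and 60.4 in replicate 2. Both strong sites were thus clear in each library, and the weak one rests on replicate 1.

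The Tnnt2 record (ENSMUSG00000026414.13, chr1:135836354-135852260, plus strand), the gene of cardiac troponin T, held 4 summits. Those nearer its 3′ end were of middle rank, at 135847278 with 99.4 (56.995 in replicate 1 and 41.4 in replicate 2) and at 135850915 with 96.6 (52.8 in replicate 1 and 41.1 in replicate 2). Those nearer its 5′ end were weak. At 135838160, in an untranslated exon 1.81 kb from the 5′ end, the signal was 15.3, from 10.5 in replicate 1 and 4.54 in replicate 2. At 135841187 it was 7.79, with no summit within 100 bp in either library. Neither weak site was in the conservative list, and the libraries' own strongest peaks, taken to the length of the optimal list, gave 3 summits inside Tnnt2 in replicate 1 and 2 in replicate 2. No optimal summit lay within 1 kb of the Tnnt2 5′ end.

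Outside this pair the nearest sites with a core were strong on either side. The one 26.3 kb upstream of Tnni1, between the LIM protein gene Csrp1 and Phlda3, had a signal of 273 (percentile 99.3), from 131 in replicate 1 and 142 in replicate 2. It was the strongest of the locus, and here replicate 2 was the higher. The one 13.5 kb downstream of Tnnt2 had 236, from 124 in replicate 1 and 109.6 in replicate 2. Further sites lay at the Csrp1 5′ end (152), upstream of Csrp1 (146 and 201), in an intron of the desmosomal plakophilin gene Pkp1 (187), and upstream of Pkp1 (198 and 76.5). The remaining 3 upstream of Tnni1 lay upstream of Csrp1, in its intron and upstream of Phlda3, with signals of 18.03 to 29.03.

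Tnnt1 and Tnni3 are the closest pair, with 1.92 kb between their records and no other protein-coding gene between them, and 16 optimal summits lay within 100 kb. Tnnt1, the slow skeletal troponin T gene (ENSMUSG00000064179.13, chr7:4504570-4516382, minus strand), held 5. The strongest, at 4513427, had 202, from 118 in replicate 1 and 82.03 in replicate 2, which is 99.8 ± 25.2 (SD, n = 2), the largest SD among the troponin peaks. Next came 4510075 with 189, from 101 in replicate 1 and 89.9 in replicate 2. The site at 4508288 had 70.7, from 38.9 in replicate 1 and 31.01 in replicate 2. The other two were weak: 4511661 had 22.1, from 10.6 in replicate 1 and 10.3 in replicate 2, and 4514536, in an untranslated exon, had 25.9, from 7.59 in replicate 1 and 17.2 in replicate 2. At 4514536, unlike at the other 4, replicate 2 was the higher, and this site was not in the conservative list.

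The stretch between the 2 genes held a single summit, at 4516652. It lay 270 bp upstream of the Tnnt1 5′ end, with a signal of 17.9, from 8.71 in replicate 1 and 6.06 in replicate 2. Tnni3, the cardiac troponin I gene (ENSMUSG00000035458.15, chr7:4518305-4524229, minus strand), held 1 summit, at 4521450 in an exon of a retained-intron transcript, with 28.5, from 19.1 in replicate 1 and 7.94 in replicate 2. The site between the genes and the one in Tnni3 were below the list median, and the Tnni3 site differed between the libraries by a log2 ratio of -1.26.

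Immediately beyond Tnni3, 2 stronger sites lay inside Dnaaf3, a gene for assembly of ciliary dynein whose record overlaps that of Tnni3. The one at 4524408 was 179 bp upstream of the 5′ end of the GENCODE record, with 147, from 80.4 in replicate 1 and 66.7 in replicate 2. The RefSeq start of Tnni3 lies 1.70 kb further in, and by that start the nearest summit was the one at 4521450, 1.08 kb downstream. The one at 4526473, 2.24 kb from the record, had 165, from 94.6 in replicate 1 and 68.8 in replicate 2. Farther out on that side, an intron of the phosphatase gene Ptprh had 239, and the last site within the window, 99.8 kb away near Tmem86b, had 64.2. On the Tnnt1 side a site in an untranslated exon of Rdh13, a retinol dehydrogenase gene, had 342 (percentile 99.9), from 188 in replicate 1 and 153 in replicate 2. It was the strongest of all 83. Another in an intron of Rdh13 had 192, and 3 in Eps8l1 had 142, 15.9 and 133. Ppp1r12c, which lies directly beside Tnnt1, held none.

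Tnni2 and Tnnt3, the fast skeletal pair, had 22 optimal summits within 100 kb and none inside either gene. Tnni2 (ENSMUSG00000031097.15, chr7:142441808-142444410, plus strand) had its nearest site 1.08 kb upstream, at 142440731, with 182, from 99.4 in replicate 1 and 83.5 in replicate 2. This was the strongest site of the locus. Upstream of it, the promoter of Syt8, a synaptotagmin gene, had 176, from 101 in replicate 1 and 74.1 in replicate 2, and a Syt8 intron had 26.4. Sites at 13.4 and 15.8 kb upstream had 69.6 and 101, and one in Ifitm10 had 38.7.

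The 54.4 kb between Tnni2 and Tnnt3 hold Lsp1, which encodes an actin binding protein of leukocytes, and 6 optimal summits. At 142457400, between Tnni2 and Lsp1, the signal was 19.7, from 9.72 in replicate 1 and 8.69 in replicate 2. Within Lsp1 it was 124 at 142481376 (62.5 in replicate 1 and 58.7 in replicate 2), 21.6 at 142483204 and 93.8 at 142487458 (51.5 in replicate 1 and 42.4 in replicate 2). Immediately before Tnnt3 (ENSMUSG00000061723.18, chr7:142498836-142516009, plus strand) lay a close pair of sites, both within Prr33 on the other strand, whose GENCODE M21 record is not of the protein-coding type. The outer one, 1.77 kb upstream, had 113, from 63.8 in replicate 1 and 48.3 in replicate 2. The inner one, 839 bp upstream, had 102, from 53.5 in replicate 1 and 50.3 in replicate 2. Tnnt3 was thus the only troponin T gene with sites above the list median within 2 kb upstream of its 5′ end.

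Tnnt3 itself held no optimal summit over 17.2 kb. Of the relaxed pooled peaks 3 lay in it, the strongest at 6.42, and the strongest in the replicates' own lists were 6.33 and 3.86. Tnni2 held no relaxed peak at all. Downstream of Tnnt3 the nearest site was 6.56 kb away (97.6), followed by the Mrpl23 promoter (126), a Mrpl23 intron (95.5) and the noncoding gene Nctc1 (155 and 22.3). The window also takes in the imprinted H19 gene, whose imprinting control region is a classical target of CTCF. The 4 sites upstream of H19, 63.3 to 65.8 kb from Tnnt3, had signals of 25.2, 75.4, 87.9 and 52.2, and the last site of the window, in the noncoding gene Gm33148, had 129.

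**Figure D1:**
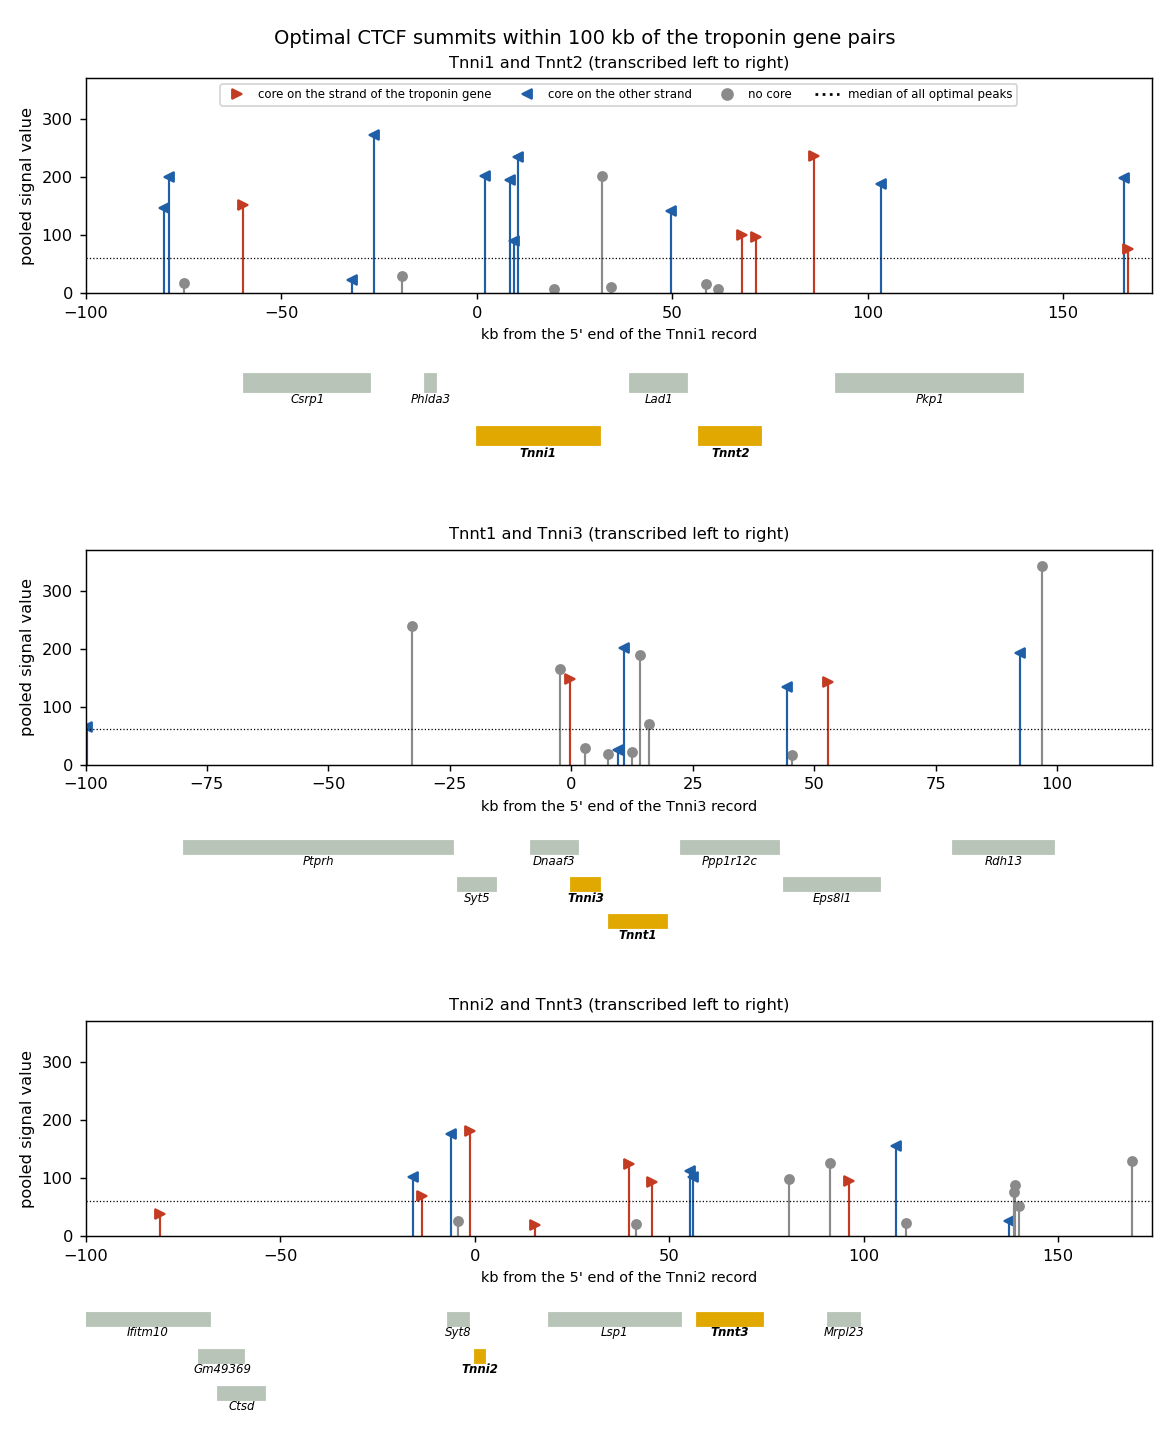
Pooled signal value of each optimal CTCF summit against its distance in kb from the 5′ end of the upstream gene of each pair, drawn in the direction of transcription, with protein-coding gene records as boxes under each panel (troponin genes in gold). Triangles give the strand of the core relative to the troponin genes, grey points have no core and the dotted line is the median of all optimal peaks (60.8). The GENCODE records of Tnni1 and Tnnt1 hold sites of up to 234 and 202, while those of Tnni2 and Tnnt3 hold none. All sites in the Tnni1 record lie upstream of its RefSeq start.

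Tnnc1, which encodes the troponin C of heart and slow muscle (ENSMUSG00000091898.8, chr14:31208312-31211729, plus strand), had 8 optimal summits within 100 kb and none inside. The gene lies within the record of Nisch, which runs on the other strand. A weak site lay 1199 bp upstream of Tnnc1 in a Nisch intron, with 16.2, from 9.01 in replicate 1 and 7.02 in replicate 2. A strong one lay 3.92 kb past its 3′ end, with 231, from 126 in replicate 1 and 104 in replicate 2. The promoter of the semaphorin gene Sema3g had 137, from 73.5 in replicate 1 and 64.3 in replicate 2, and a site beyond Sema3g had 246, from 129 in replicate 1 and 119 in replicate 2. A coding exon of the dynein gene Dnah1 had 204. Upstream, a Nisch intron 12.1 kb away had 98.1 and the Smim4 promoter had 33.9 and 82.8. The sites downstream of Tnnc1 were thus all stronger than the ones upstream.

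Tnnc2, the fast skeletal troponin C gene (ENSMUSG00000017300.9, chr2:164777161-164779967, minus strand), had 14 optimal summits within 100 kb, none inside and no relaxed peak inside. It was the troponin gene with the most distant nearest site, 5.79 kb upstream at the promoter of the sorting nexin gene Snx21, with 54.7, from 27.01 in replicate 1 and 29.98 in replicate 2. On its other side a site 7.72 kb away, upstream of the mitotic ubiquitin enzyme gene Ube2c, had 46.6, from 26.7 in replicate 1 and 17.9 in replicate 2. Both were below the list median. The strongest site of the locus, in an intron of the thioesterase gene Acot8, had 167, from 92.9 in replicate 1 and 74.1 in replicate 2. A nearby one where Snx21 and Acot8 overlap had 121, from 66.4 in replicate 1 and 57.4 in replicate 2. Others above 100 were near the Ctsa 5′ end (138) and near Spint5 (142) and Wfdc11 (144). The rest, in or near Acot8, Zswim3, Zswim1, Pltp and Pcif1, had 17.2 to 69.4.

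**Figure D2:**
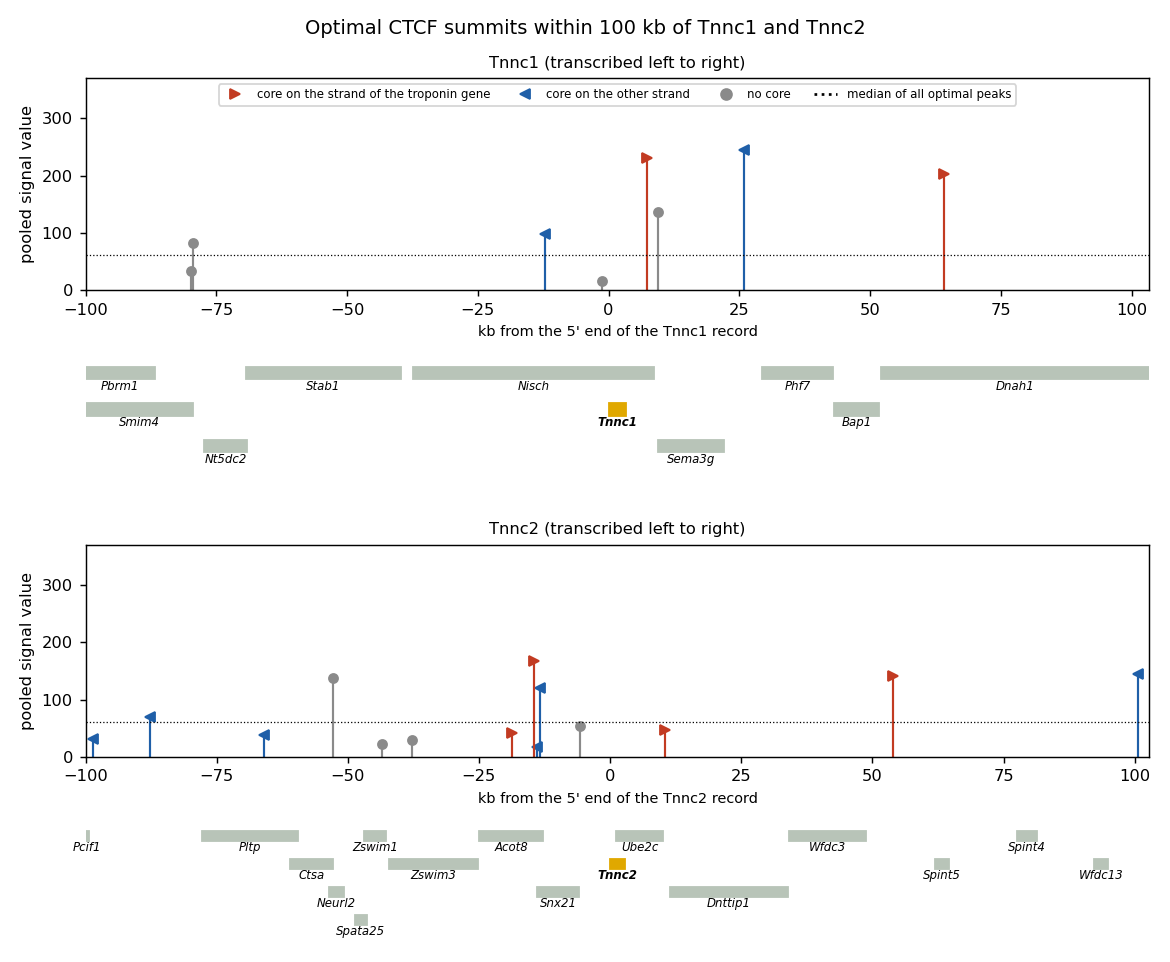
Pooled signal value of each optimal CTCF summit against its distance in kb from the 5′ end of Tnnc1 (upper panel) and Tnnc2 (lower panel), drawn in the direction of transcription with protein-coding gene records as boxes. Neither gene holds a summit; the 4 sites downstream of Tnnc1 are all stronger than the 4 upstream of it, and no site near Tnnc2 exceeds 167.

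All 8 troponin genes had an optimal summit within 10 kb of their record, which 69.7% of 21938 protein-coding genes had. Inside the record 4 of 8 had one, against 46% of protein-coding genes. Records differ in length, so the counts inside the records were also set beside genes of like length. Of the 4 members under 10 kb (Tnni2, Tnni3, Tnnc1 and Tnnc2) only Tnni3 held a summit, where 17.4% of 7774 protein-coding genes under 10 kb did. Of the 4 between 10 and 35 kb all but Tnnt3 held one, where 46.2% of 7368 genes did. Tnni1, Tnnt2 and Tnnt1 each held at least 4, as 1.78% of the genes of that length did, a limit set after the members' counts were seen. This holds for the GENCODE records: from its RefSeq start Tnni1 held 0. In the conservative list Tnni1 held 5, of which 4 were among its optimal summits, Tnnt1 held 4 and Tnnt2 held 2.

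The stretches between the members of the pairs held 3, 1 and 6 summits. Cut end to end over the chromosomes, windows of 25.4 kb held at least 1 optimal summit in 27.9% of cases and on average 0.43. This compares with 3 between Tnni1 and Tnnt2. Windows of 1.92 kb held one in 3.1% of cases, beside the 1 weak summit between Tnnt1 and Tnni3. Windows of 54.4 kb held one in 44.3% of cases and 0.92 on average, beside 6 between Tnni2 and Tnnt3. Those windows cover whole chromosomes, and the surroundings of the pairs were themselves dense. Per 10 kb the stretches held 1.18, 5.20 and 1.10 summits, in the order Tnni1, Tnnt1 and Tnni2 pair. Per 100 kb the whole loci held 8.43, 7.28 and 8.02. The strongest site between the members had a signal of 203 in the Tnni1 pair, 17.9 in the Tnnt1 pair and 124 in the Tnni2 pair. The pairs differed in where their sites lay. For Tnni1 and Tnnt2, 9 lay inside the genes, 3 between them, 7 upstream and 4 downstream of the pair. For Tnnt1 and Tnni3, 6 lay inside, 1 between, 4 upstream and 5 downstream. For Tnni2 and Tnnt3, none lay inside, 6 lay between, 6 upstream and 10 downstream. For Tnni1 the count inside rests on the GENCODE record, since all 5 of its summits lie upstream of the RefSeq start. With 1 locus of each kind these differences are described without a test.

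Counted per gene, the number of summits within 100 kb was 21 for Tnni1 and Tnnt3, 19 for Tnnt2, 16 for Tnni3, 15 for Tnnt1 and Tnni2, 14 for Tnnc2 and 8 for Tnnc1. The median over protein-coding genes was 7, with quartiles of 4 and 11. Counts as high as those of Tnni1 and Tnnt3 were found in 1.86% of protein-coding genes, counts as high as that of Tnnt2 in 3.496%, and counts as high as that of Tnnc1 in 47.3%. The members of a pair share most of their sites, and so their counts are not separate observations. By locus the density was 8.43 summits per 100 kb around Tnni1 and Tnnt2, 7.28 around Tnnt1 and Tnni3, 8.02 around Tnni2 and Tnnt3, 6.90 around Tnnc2 and 3.93 around Tnnc1. The median over windows drawn in the same way around single protein-coding genes was 2.92. The windows also held between 4 and 15 other protein-coding genes each, and the part of gene density in these counts was not tested. By muscle type, the adult heart set (Tnnt2, Tnni3 and Tnnc1) had 19, 16 and 8, the slow skeletal set (Tnnt1, Tnni1 and Tnnc1) 15, 21 and 8, and the fast skeletal set (Tnnt3, Tnni2 and Tnnc2) 21, 15 and 14, so the sets overlapped.

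**Figure D3:**
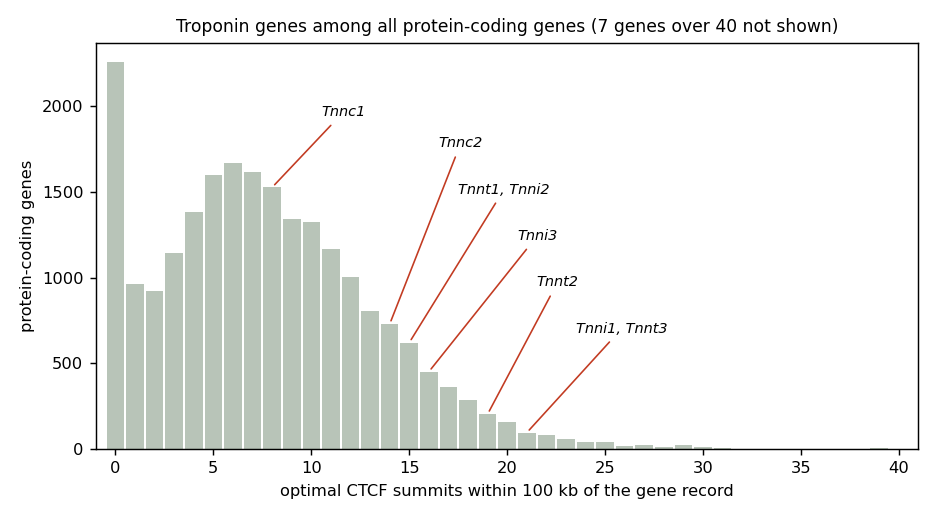
Number of protein-coding genes (vertical axis) with each number of optimal CTCF summits within 100 kb of the record (horizontal axis), with the troponin genes marked; 7 genes above 40 are not drawn. Tnnc1, at 8, lies near the median of 7, and the other 7 troponin genes lie at 14 to 21, above the upper quartile of 11.

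The windows end at 100 kb by rule. The outermost site inside each locus, on whichever side it lay, was at 79.9 to 99.8 kb with signals of 31.9 to 129. The first site outside, also 1 per locus, lay at 103 to 135 kb with signals of 29.5 to 221. On the other side the last site inside could be nearer, as at 60.6 kb downstream of Tnnc1.

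The libraries gave closely similar values at most sites. The optimal list had been filtered for reproducibility between these same libraries, so their agreement was in part selected for. Of the 83 troponin peaks 81 had a summit within 100 bp in both relaxed lists, as did 97.1% of all optimal peaks. The conservative list held 77 of them, where it held 89.4% of all optimal peaks. Taken from the libraries' own strongest peaks at the length of the optimal list, the count around Tnni1 and Tnnt2 was 23 in replicate 1 and 20 in replicate 2, around Tnnt1 and Tnni3 15 and 16, around Tnni2 and Tnnt3 22 and 22, around Tnnc1 11 and 10, and around Tnnc2 16 and 15. At 64 of the 81 sites found in both, replicate 2 was lower, as it was at 32128 of 43221 such peaks in the whole optimal list. The median log2 ratio of replicate 2 to replicate 1 was -0.23, against -0.22 over all optimal peaks. By log2 ratio the sites with the largest differences were weak ones, though the largest SD lay at the strongest site of Tnnt1. The site in Tnni3 and the one in the untranslated exon of Tnnt2 were lower in replicate 2 by log2 ratios of -1.26 and -1.21, and the one in the untranslated exon of Tnnt1 was higher by 1.18.

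**Figure D4:**
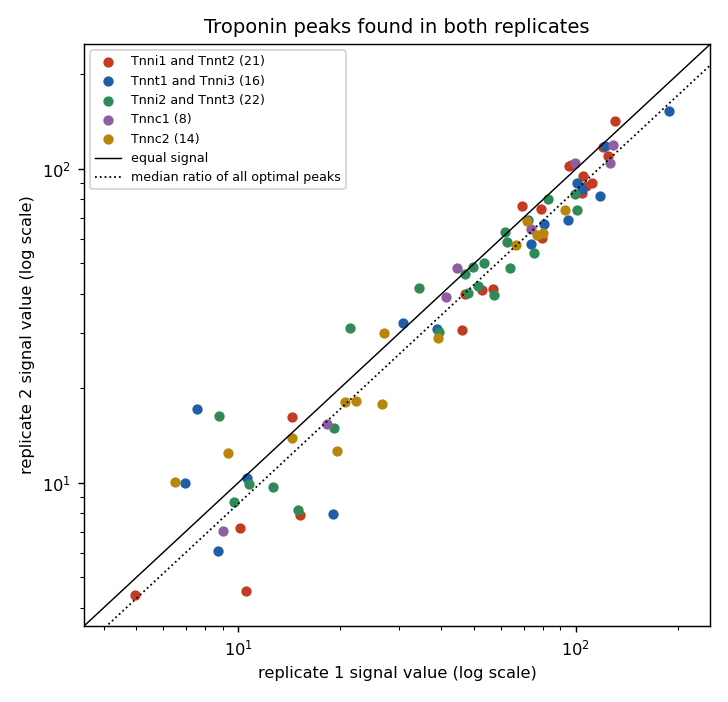
Signal value in replicate 2 against replicate 1, both on log scales, for the 81 troponin peaks with a summit in both libraries, coloured by locus. The solid line marks equal signals and the dotted line the median ratio over all optimal peaks; most points lie at or near the dotted line, and the points farthest from it are among the weakest.

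Troponin peaks had a median pooled signal of 97.6, against 60.8 over all optimal peaks, and 54 of the 83 were above the latter. By the libraries' own values the medians were 52.8 and 46.2, against 34.4 and 28.9. Of the 83, 17 ranked above the 90th percentile of the optimal list and 7 below the 10th. The locus medians were 142 around Tnni1 and Tnnt2, 138 around Tnnt1 and Tnni3, 118 around Tnnc1, 94.7 around Tnni2 and Tnnt3 and 50.7 around Tnnc2. Tnnc2 was the locus whose median was below that of the list, with 6 of its 14 sites above it.

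A CTCF core with at most 2 mismatches was found at 50 of the 83 sites (60.2%), where 73.5% of all optimal peaks had one. In windows 1000 bp to the left and right of the troponin summits 4 and 3 had one, and over all optimal peaks 2.79% and 2.94% did. The share was 16 of 23 around Tnni1 and Tnnt2, 7 of 16 around Tnnt1 and Tnni3, 13 of 22 around Tnni2 and Tnnt3, 4 of 8 around Tnnc1 and 10 of 14 around Tnnc2. The troponin share was thus lower than the list's while the troponin signals were higher. Sites with a core had a median signal of 129 and sites without one 33.9, against 78.7 and 31.3 in the whole list. Perfect matches were present at 10 sites, among them the outer and inner sites in the upstream intron of Tnni1, the upper site of Tnnt2 and the strongest site of Tnnt1, all listed above.

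Some strong sites had no such core. They included the strongest of all, in Rdh13 (best match with 4 mismatches), and those past the 3′ end of Tnni1, in the Tnnt1 intron at 4510075 and in Ptprh at 4556943, each with a single best match of 3 mismatches. In the 3 sequences that follow, of 101 bases around the summit on the strand of that match, the match is in capitals. They are shown because their signals, 203, 189 and 239, ranked above the 90th percentile of the optimal list.
past the 3′ end of Tnni1, chr1:135811413-135811513, plus strand: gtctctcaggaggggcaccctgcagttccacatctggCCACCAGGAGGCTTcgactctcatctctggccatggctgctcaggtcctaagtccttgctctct
Tnnt1 intron and adjoining coding exon, chr7:4510025-4510125, plus strand: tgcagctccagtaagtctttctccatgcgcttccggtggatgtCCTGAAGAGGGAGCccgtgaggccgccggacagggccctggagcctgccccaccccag
Ptprh intron, chr7:4556893-4556993, plus strand: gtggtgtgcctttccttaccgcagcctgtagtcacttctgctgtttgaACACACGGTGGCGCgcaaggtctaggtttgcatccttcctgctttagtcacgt

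**Figure D5:**
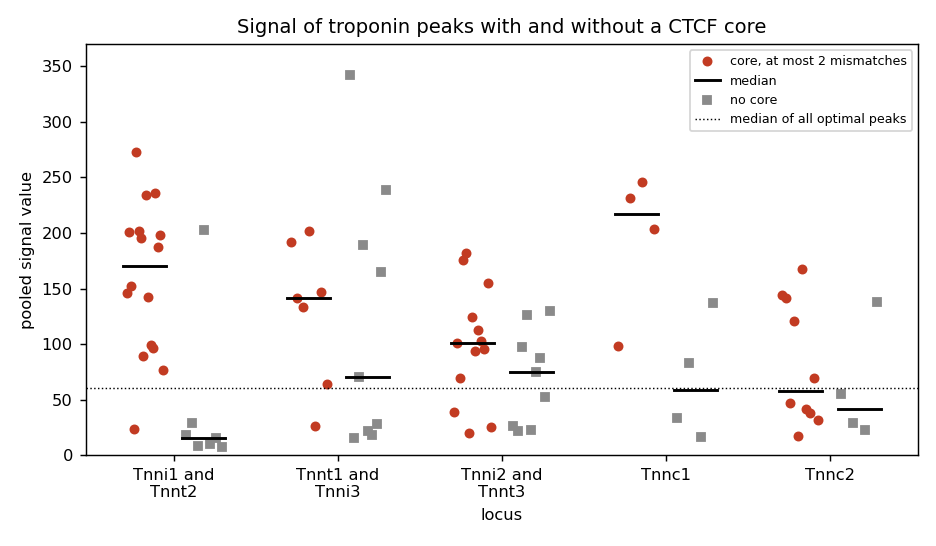
Pooled signal value of the 83 troponin peaks by locus, split by whether a CTCF core with at most 2 mismatches lay within 50 bp of the summit; black bars are medians and the dotted line is the median of all optimal peaks (60.8). Around Tnni1 and Tnnt2 all but 1 of the sites without a core lie below 30, while around Tnnt1 and Tnni3 sites without a core reach 342.

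Strands were followed along the chromosome. On chromosome 1, 7 cores in a row lay on the minus strand, against the direction of transcription, from the intron of Csrp1 through the 4 sites of the Tnni1 record to the Lad1 intron. The next 3, at the upper and lower sites of Tnnt2 and downstream of it, lay on the plus strand. The change of strand therefore fell between the core in the Lad1 intron and that of the upper site inside Tnnt2. Around Tnni2 and Tnnt3, 4 cores in a row lay on the plus strand, from the site upstream of Tnni2 to the second core of Lsp1. The close pair before Tnnt3 lay on the minus strand, so these groups faced each other across the 3′ end of Lsp1. Around Tnnt1 and Tnni3, the last core in Eps8l1 and both cores in Tnnt1, on the plus strand, faced the minus strand core at the Tnni3 5′ end. Over all 45 neighbouring pairs of cores in the 5 loci, 11 were convergent, the plus strand core coming first along the chromosome, 12 were divergent and 22 lay on the same strand. No count over neighbouring cores of the whole optimal list was set beside these. Whether such runs of 1 strand are particular to these loci was not tested.

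Taken from the outside, the nearest cores on the left and right of a locus were convergent for 1 of the 5, Tnnt1 and Tnni3, where they lay 24.7 kb and 0.18 kb from the records with signals of 133 and 147. Those of Tnni1 and Tnnt2, of Tnnc1 and of Tnnc2 were divergent, and those of Tnni2 and Tnnt3 lay on the same strand. Over 21628 protein-coding genes with a core on both sides, 29% were convergent, 25.2% divergent and 45.8% on the same strand. With 5 loci no order can be read from these counts.

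The other genes of the sarcomere were counted in the same way. Of 12 thin filament partners of troponin (tropomyosins, actins, tropomodulins, leiomodins and nebulins) 10 had a summit within 10 kb and 7 held one. Their median count within 100 kb was 7.5, from 3 at Actc1, the cardiac actin gene, to 14 at Tmod1, a tropomodulin gene that caps the filament. Tpm1, the main cardiac tropomyosin gene, held 5 summits in 26.8 kb. Actc1 and Acta1 were the partners with none within 10 kb. Of 14 thick filament genes (myosin chains, myosin binding proteins, titin and myomesins) all 14 had a summit within 10 kb and 9 held one. Their median count within 100 kb was 13, from 3 at Mybpc1 to 18 at Myl2, the ventricular light chain gene. Counts of at least 14 were reached by 7 of the 8 troponin genes, 1 of the 12 partners and 6 of the 14 thick filament genes, against 14.6% of all protein-coding genes. The limit of 14 is the count of Tnnc2 itself and was set after the counts were seen. Over all protein-coding genes 69.7% had a summit within 10 kb and 46% held one. The genes of these lists were not matched for length, and the longest record, that of Nebl, spans 388 kb. The members of both lists and of the troponin set include neighbours that share sites, such as Myh6 and Myh7, and no test was made between the sets.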

How the data were processed

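CTCF ChIP-seq of newborn mouse heart was used as 5 deposited peak lists on mm10, as the labels name the build. Per the listings deposited with the peaks, the authors called relaxed lists of 300000 peaks on replicate 1, on replicate 2 and on both, against a control, and derived the optimal (44533) and conservative (43221) lists from them by IDR. Which aligner and peak caller were run is not given in the sources used here. Signal values are used as the authors deposited them, with no scaling between libraries. Their deposited q-value score entered no result. A summit was placed at the deposited offset from the start of its peak.

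Positions were analysed on chromosomes 1 to 19, X and Y (44518 optimal peaks) with GENCODE M21 and GRCm38.p6. A summit within 1000 bp of a gene 5′ end was called promoter, then coding exon, untranslated exon, other exon, intron or intergenic. RefSeq starts came from RefSeq (GRCm38.p6) and covered 6 of the 8 genes. A core with 7 or more bases in lower case was called masked. The core search recovered 100% of 2000 cores planted in random windows. Python 3.11.15, pandas 2.3.3, numpy 2.4.6 and pysam 0.24.0 were used. Replicate values are mean ± SD over 2 libraries; there is 1 group, so no test was made. Genes named are the members, the protein-coding genes between paired members and, for each peak, the protein-coding gene that holds it or has the nearest 5′ end; noncoding genes, some further neighbours and genes of the 2 sarcomere lists were also named. The members and lists were chosen with earlier results of these data known. Alternatives were the conservative list, each library alone, other windows, mismatch limits and matching distances, peak intervals in place of summits and RefSeq starts.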

Additional observations from a re-analysis of the deposited data

How the results depend on the processing

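Of 33 alternative values computed for 8 results, 31 stayed within 1.5 times the reported count or within the SD between libraries. Only the share of sites with a core moved further: with at most 1 mismatch it was 33.7%, against 42.4% of all optimal peaks, and with at most 3 it was 86.7%, against 91.3%, so it was below that of the list at each of these limits. At 0 mismatches it was 12.0%, against 11.6%. The number of sites was 86 in the conservative list and 83 and 87 in the libraries' own strongest peaks. Sites inside the genes fell to 12 in the conservative list and to 10 with RefSeq starts, the latter chosen after the data were seen. Weak sites, such as those in Tnnt2 and Tnni3, rest on low signals whose depth is unknown.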

Other observations

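Of the 50 cores at troponin sites 10 lay in masked repeats: 4 around Tnnc2, 3 around Tnni1 and Tnnt2, 2 around Tnnt1 and Tnni3 and 1 around Tnni2 and Tnnt3. The masked ones included the strong site between Csrp1 and Phlda3 (signal 273) and those in Pkp1 (187) and Rdh13 (192). None of the cores inside Tnni1, Tnnt2 or Tnnt1 was masked. The 50 cores had 47 different sequences, and 3 sequences occurred at 2 sites each.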
